A study of Mus musculus with 15 samples.

Results

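Transcripts of 9 complement genes were measured by bulk RNA-seq in thalamic tissue of 15 mice. The genes were listed by name and comprised C1qa, C1qb, C1qc, C3, C4b, C3ar1, Itgam, Itgb2 and Serping1. All 9 were found among the 29659 genes of each library, and all 9 lay above the low-expression filter in every library. The mice belonged to 4 genotypes and were 4.5 months old. EL mice (n = 3) carried a homozygous human APOE4 knock-in with an intact Lilrb4a gene, and ELKO mice (n = 3) carried the same knock-in with both copies of Lilrb4a deleted. 5EL mice (n = 5) and 5ELKO mice (n = 4) were the corresponding genotypes with the 5xFAD transgenes, which are driven by the neuronal Thy1 promoter and produce amyloid deposits. By these labels human APOE4 was shared by every group, and no group was labelled as wild type or as carrying mouse Apoe. The deletion was germline and was not limited to microglia. Each library came from the tissue of one mouse, which was perfused with saline before dissection.

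Complement is a cascade of plasma and tissue proteins that tags surfaces for removal. C1q, assembled from the products of C1qa, C1qb and C1qc, starts the classical pathway. C4 and C3 are cleaved downstream of it, and their fragments are read by receptors such as C3aR and the integrin complement receptor 3 (CD11b/CD18). In the brain, C1q is made mainly by microglia, whereas C4b and C3 are known as genes of reactive astrocytes, and C1q and C3 take part in the microglial removal of synapses and in responses to amyloid plaques.

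The deposited values are on a log2 scale, and fold changes given here are differences of these values taken off that scale. The transform is not given and low values are drawn together, so these fold changes may be understated. The deposited values hold no read counts. The paper lists total reads for 5EL and 5ELKO libraries but not for EL and ELKO, and the count behind a single value is unknown. Lilrb4a, the deleted gene, was at 2.33 in all 7 libraries labelled as deleted and between 2.34 and 2.66 in the other 8. This gene lay at the low end of the scale, where values are drawn together, so the check is weak. Mouse Apoe was 10.9 in ELKO replicate 1 and between 5.92 and 6.37 in the other 14 libraries. This goes against the knock-in label of the library labelled ELKO replicate 1. Many but not all member results that rest on ELKO are given with and without that library. Choroid plexus genes were high in 5EL replicate 1 and ELKO replicate 2, and hepatocyte genes were high in EL replicate 1 and in the 5ELKO libraries. The hemoglobin gene Hbb-bs was 7.13 and 8.28 in EL replicates 2 and 3 and between 5.49 and 6.47 in the other libraries. All 10 thalamic marker genes were well expressed in every library. Their levels were not equal, since 5 of 10 had a nominal p under 0.05 in 5EL against EL (limma). The median difference of that list was -0.24, and Calb2 was 10.72 in EL replicate 3 against 12.29 to 13.08 elsewhere. Neutrophil, monocyte and lymphocyte markers were below a linear value of 10 in every library. Of 7 border macrophage markers, 2 (Pf4 and Ms4a7) were below it and 5 were at or above it in every library. Those 5 were all lower in 5ELKO than in 5EL, with a median difference of -0.16. Of them 3 had a nominal p under 0.05 (limma), beside 2.49% of all genes. In bulk tissue, fewer cells of a type and less RNA per cell cannot be told apart.

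The C1q subunit genes were the most highly expressed members. On the log2 scale per kilobase of exon, EL libraries averaged 9.20 ± 0.23 for C1qa, 9.12 ± 0.15 for C1qb and 8.06 ± 0.18 for C1qc (SD, n = 3). C1qa and C1qb did not differ beyond their spread, and C1qc lay below both. Itgam, which encodes the CD11b chain of complement receptor 3, followed at 6.04 ± 0.12 per kilobase, and its partner chain gene Itgb2 (CD18) at 5.54 ± 0.18. C4b, a C4 gene, was at 5.12 ± 0.35, and Serping1, the C1 inhibitor gene, was at 5.10 ± 0.05. The levels of these 2 genes did not differ beyond their spread in EL. The C3a receptor gene C3ar1 reached 3.69 ± 0.11 per kilobase, and C3 was the lowest at 3.03 ± 0.26. In 5EL the order was the same except that C4b, at 5.89 ± 0.20 per kilobase (n = 5), lay between Itgam (6.17 ± 0.12) and Itgb2 (5.82 ± 0.16), within the spread of Itgb2. Serping1 was lower than C4b in both 5xFAD genotypes, at 5.23 ± 0.07 in 5EL and 5.25 ± 0.03 in 5ELKO.

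**Figure D1:**
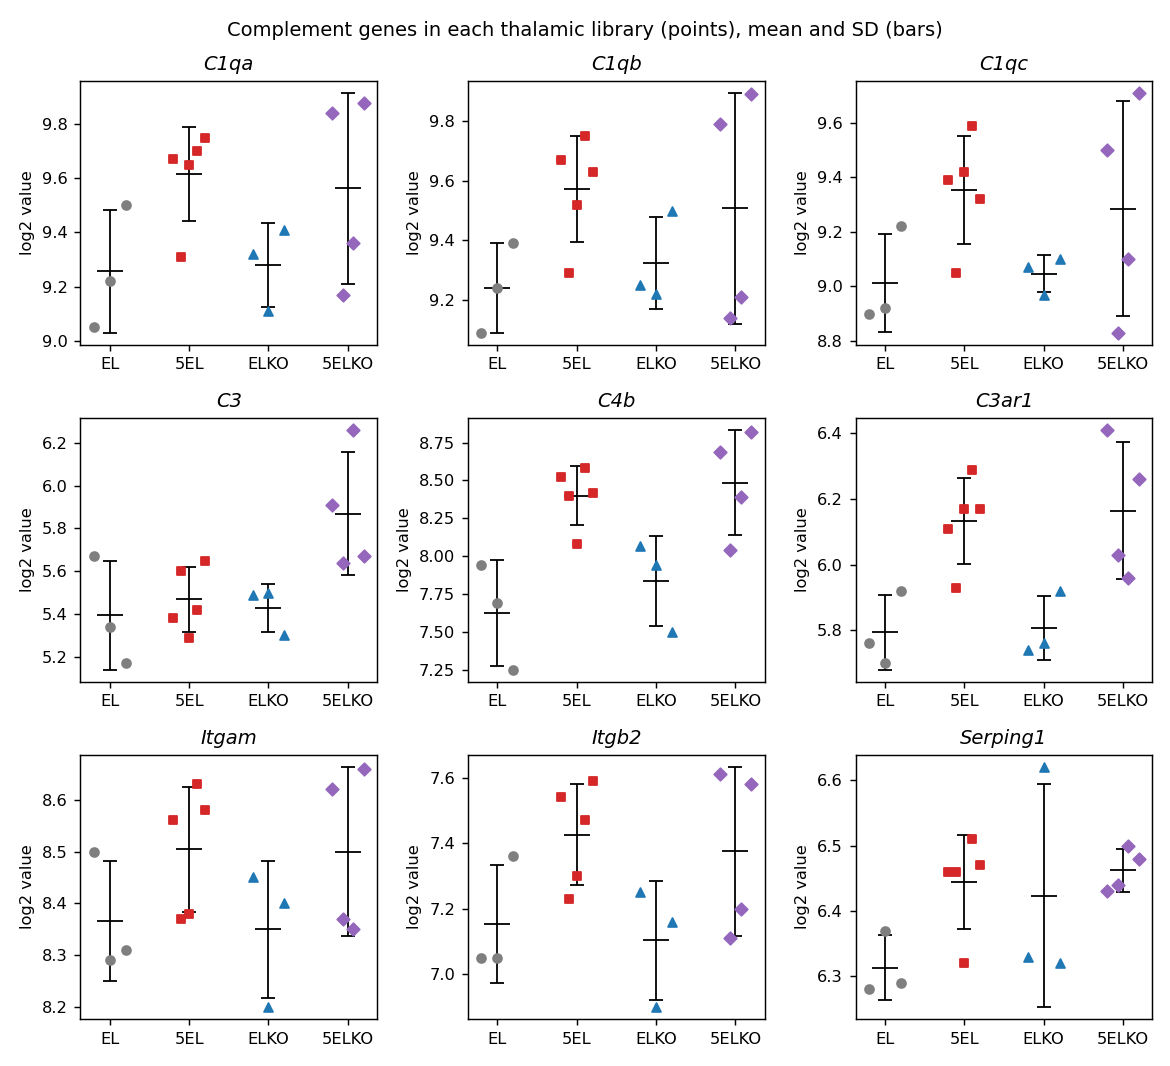
Log2 value of each of the 9 complement genes in every thalamic library, with 1 panel per gene and its own vertical scale. Points are libraries of EL (n = 3), 5EL (n = 5), ELKO (n = 3) and 5ELKO (n = 4), the long bar is the mean and the whiskers are 1 SD. All 9 libraries with 5xFAD lie above all 6 without it for C3ar1, whereas for C3 the 5ELKO libraries, at 5.64 to 6.26, overlap those of EL (up to 5.67) and 5EL (up to 5.65).

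In the GRCm38 genome the 3 C1q genes lie next to each other on the minus strand of chromosome 4, with C1qb at 136880129 to 136886187, C1qc at 136889804 to 136893065 and C1qa at 136895917 to 136898803. C4b and C3 are both on chromosome 17, at 34728380 to 34743882 and at 57203970 to 57228136, also on the minus strand. C3ar1 is on chromosome 6 at 122847138 to 122856161. The 250 bases upstream of the RefSeq transcript start (GRCm38.p6) were read for 5 of the 9 genes. Those of C1qb and C1qc are shown because these neighbours moved together across libraries, and those of C3 and C3ar1 because C3 did not move with them and C3ar1 separated the amyloid genotypes. Each is written 5′ to 3′ along the gene's own strand and ends at the base before the RefSeq start. The gene coordinates above are from GENCODE and can start elsewhere. By them, the C1qc window up to 136893065 and the C3ar1 window up to 122856161 lie within the gene. Capitals mark matches, on either strand, to GAGGAA (PU.1 core), TTGCNNAA (C/EBP) or the NF-kB motif (GGGA and CC with 4 bases between them), where N is any base.
C1qb, minus strand, chr4:136886201-136886450: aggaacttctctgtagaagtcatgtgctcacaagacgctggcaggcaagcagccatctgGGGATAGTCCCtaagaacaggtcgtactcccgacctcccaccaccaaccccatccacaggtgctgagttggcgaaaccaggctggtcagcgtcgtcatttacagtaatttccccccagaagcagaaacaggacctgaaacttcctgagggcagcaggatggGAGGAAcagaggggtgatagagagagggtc
C1qc, minus strand, chr4:136892915-136893164: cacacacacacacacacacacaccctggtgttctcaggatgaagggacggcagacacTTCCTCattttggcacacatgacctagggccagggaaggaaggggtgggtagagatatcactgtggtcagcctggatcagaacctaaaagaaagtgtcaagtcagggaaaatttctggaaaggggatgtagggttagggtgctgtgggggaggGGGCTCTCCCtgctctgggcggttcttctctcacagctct
C3, minus strand, chr17:57228137-57228386: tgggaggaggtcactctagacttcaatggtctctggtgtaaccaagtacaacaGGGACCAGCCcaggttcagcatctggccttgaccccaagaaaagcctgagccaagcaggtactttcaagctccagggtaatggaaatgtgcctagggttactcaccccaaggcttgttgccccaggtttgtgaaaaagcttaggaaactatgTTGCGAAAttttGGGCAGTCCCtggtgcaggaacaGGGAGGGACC
C3ar1, minus strand, chr6:122856158-122856407: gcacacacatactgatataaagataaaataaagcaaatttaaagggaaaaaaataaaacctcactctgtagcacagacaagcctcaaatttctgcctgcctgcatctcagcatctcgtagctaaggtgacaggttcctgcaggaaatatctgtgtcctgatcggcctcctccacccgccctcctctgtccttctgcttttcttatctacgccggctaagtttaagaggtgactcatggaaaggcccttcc

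The C1qb and C1qc windows each held 1 GAGGAA match, as did 23.3% of 32851 promoter windows of the same length. The C3 window held 1 TTGCNNAA match, found in 9.56% of the windows, and 3 matches to the NF-kB motif, which 17.6% of the windows held at least once. The C1qc window held 1 match to it, which lies within the gene by the GENCODE coordinates. In C1qb 2 overlapping matches on opposite strands form 1 run of capitals. The C3ar1 window held none of these letters, and neither TTCNNNGAA (STAT, 7.02% of windows) nor the interferon response element (2.98%) were found in any of the 4 windows shown. These matches describe letters only and no binding was measured.

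To describe how complement genes differed with amyloid when Lilrb4a was intact, 5EL was compared with EL. C4b was higher in 5EL, and so was C3ar1, both without overlap between the groups. The C1q genes and Itgb2 were also higher on average, but with overlapping libraries. No gene of the genome passed an adjusted p of 0.05 (limma, Benjamini-Hochberg over 15804 genes), and 1217 genes had a nominal p under 0.05. Values are therefore described against the study's exploratory threshold, which asks for an unadjusted p below 0.05 together with a change of more than 1.2-fold. It is applied here to limma fits of the deposited values, whereas the study used DESeq2. Of the 9 members, 4 were past it, all higher in 5EL (C4b, C3ar1, C1qa and C1qc), beside 1.53% of all genes tested that were past it in that direction and 2.41% in either direction. The median difference was 0.33 over the 9 members and close to 0 (6e-04) over all genes tested.

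C4b was 8.52, 8.40, 8.08, 8.58 and 8.42 in the 5EL libraries and 7.94, 7.69 and 7.25 in the EL libraries. Every 5EL library was above every EL library, a pattern seen in 1.68% of genes tested and in 2 of the 9 members. The log2 difference was 0.77 ± 0.19 (SE, 95% confidence interval 0.38 to 1.17), or 1.71-fold (limma, adjusted p = 0.63). C4b had the 9th smallest p of all genes, and without any 1 of the 8 libraries its difference stayed between 0.58 and 0.93. Its close paralog C4a was read at 2.80 to 2.93 in all 15 libraries, and reads that fit both genes cannot be placed by these values.

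C3ar1 was 6.11, 5.93, 6.17, 6.29 and 6.17 in 5EL and 5.76, 5.70 and 5.92 in EL. The lowest 5EL library, replicate 2, was just above the highest EL library, replicate 3. The difference was 0.34 ± 0.10 (SE, interval 0.13 to 0.55), or 1.26-fold (adjusted p = 0.63), and it stayed between 0.29 and 0.40 without any 1 library.

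C1qa was 9.67, 9.31, 9.65, 9.70 and 9.75 in 5EL and 9.05, 9.22 and 9.50 in EL. Only 5EL replicate 2 fell within the EL range. The differences were 0.36 ± 0.16 for C1qa (interval 0.03 to 0.69), 0.34 ± 0.16 for C1qc (interval 0.00 to 0.68) and 0.33 ± 0.16 for C1qb (interval -0.00 to 0.67), each at an adjusted p = 0.63. These calls were fragile, since C1qa was past the threshold in 9 of 19 alternative fits and C1qc in 3 of 19. Changing the low-value filter, the variance trend or the centring of the libraries was enough for C1qc to lose it. Both genes also lost it when any of 6 libraries was left out, namely 5EL replicates 1, 3, 4 and 5 and EL replicates 1 and 2. Their differences then ran down to 0.26 for C1qa and 0.28 for C1qc. Without 5EL replicate 2, or without EL replicate 3, C1qb and Itgb2 also passed and 6 members were counted.

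The receptor chain gene Itgb2 ranged from 7.23 to 7.59 in 5EL and from 7.05 to 7.36 in EL, a difference of 0.27 ± 0.13 (interval -0.00 to 0.55, adjusted p = 0.63). Itgam differed by 0.14 ± 0.09 (interval -0.06 to 0.34), Serping1 by 0.13 ± 0.07 (interval -0.01 to 0.28) and C3 by 0.07 ± 0.14 (interval -0.22 to 0.37). None of these 4 members passed. C3 was between 5.29 and 5.65 in 5EL and between 5.17 and 5.67 in EL, so that the EL libraries covered the whole 5EL range.

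Microglial genes moved with the C1q genes. The mean of 12 microglial identity genes was 8.36 to 8.56 in 5EL and 8.26 to 8.36 in EL, with a median difference of 0.11 per gene and 4 of 12 at a nominal p under 0.05. Of 17 genes of disease-associated microglia, 14 had a nominal p under 0.05 and their median difference was 0.40. All genes of both lists passed the filter on low values. With the mean of the 12 microglial genes as a covariate, the 5EL difference was 0.07 for C1qa, -0.00 for C1qb, 0.03 for C1qc, 0.18 for C3ar1 and 0.62 for C4b. Of these genes only C4b was then past the exploratory threshold. The amount of microglial RNA and its content per cell cannot be told apart in these values.

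The same amyloid comparison in mice lacking Lilrb4a set 5ELKO against ELKO. C4b, C3ar1 and C3 were higher in 5ELKO, and the C1q genes were higher on average with a wide spread. No gene passed an adjusted p of 0.05 (limma, 15804 genes), and 375 genes had a nominal p under 0.05. The 3 members past the exploratory threshold stood beside 0.354% of all genes that were past it in the same direction and 0.399% in either direction. The median difference of the 9 members was 0.27.

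C4b was 8.69, 8.04, 8.39 and 8.82 in 5ELKO and 8.07, 7.94 and 7.50 in ELKO. Only 5ELKO replicate 2 fell below the highest ELKO library, which was replicate 1. The difference was 0.65 ± 0.19 (SE, interval 0.24 to 1.07), or 1.57-fold (limma, adjusted p = 0.9995). Without the library labelled ELKO replicate 1, which carried high mouse Apoe, it was 0.77.

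C3ar1 was 6.41, 6.03, 5.96 and 6.26 in 5ELKO and 5.74, 5.76 and 5.92 in ELKO, and the groups did not overlap. Its difference was 0.36 ± 0.11 (interval 0.14 to 0.58), or 1.28-fold (adjusted p = 0.9995), and 0.33 without ELKO replicate 1.

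C3 was 5.91, 5.64, 6.26 and 5.67 in 5ELKO and 5.49, 5.50 and 5.30 in ELKO. The groups did not overlap, and 5ELKO replicate 3 was the highest of all 15 libraries. Higher values without overlap were found in 2 of the 9 members, C3 and C3ar1, and in 1.78% of all genes tested. The C3 difference was 0.44 ± 0.14 (interval 0.13 to 0.74), or 1.35-fold (adjusted p = 0.9995), and 0.47 without ELKO replicate 1. All 3 genes were past the threshold without that library. The mean of 26 hepatocyte genes also differed between these groups, at 4.63 to 4.94 in 5ELKO and 4.31 to 4.46 in ELKO. With that mean as a covariate the differences were 0.15 for C3, 0.32 for C4b and 0.36 for C3ar1, and of these only C3ar1 was past the threshold. The ranges of the hepatocyte mean do not overlap between 5ELKO and ELKO, so it cannot be told apart from the genotype here. With the mean of the 12 microglial genes as a covariate instead, C3 (0.57) and C4b (0.48) were past it and C3ar1 (0.17) was not.

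The C1q genes split the 5ELKO libraries. C1qa was 9.84 and 9.88 in replicates 1 and 4 but 9.17 and 9.36 in replicates 2 and 3, against 9.11 to 9.41 in ELKO. C1qb and C1qc split the same 4 libraries in the same way. RNA integrity, which the paper lists for 5ELKO, was not used here and could not be matched to these libraries with certainty. Their differences from ELKO were 0.28 ± 0.16 for C1qa (interval -0.06 to 0.63), 0.18 ± 0.16 for C1qb (interval -0.17 to 0.53) and 0.24 ± 0.17 for C1qc (interval -0.12 to 0.59), so none passed. Without 5ELKO replicate 2, C1qa was 0.42 higher and C1qc 0.39 higher, and with Itgb2 the number of members past the threshold was 6. Without 5ELKO replicate 4 the differences were 0.18 for C1qa, 0.05 for C1qb and 0.10 for C1qc. Without the library labelled ELKO replicate 1 they were 0.30, 0.15 and 0.25 in the same order. The microglial gene mean followed the same split, at 8.51 and 8.63 in replicates 1 and 4 and at 8.30 and 8.34 in replicates 2 and 3. Itgb2 differed by 0.27 ± 0.14 (interval -0.02 to 0.56), Itgam by 0.15 ± 0.10 and Serping1 by 0.04 ± 0.07 (interval -0.11 to 0.19). Itgb2 passed without ELKO replicate 1, at 0.34, which brought the members to 4. Without that library Itgam differed by 0.20 and Serping1 by -0.00.

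Whether the amyloid difference itself differed with Lilrb4a was tested as an interaction. No member was past the exploratory threshold, beside 1.2% of all genes (190 genes), and no gene passed an adjusted p of 0.05 (limma), with 432 (2.73%) at a nominal p under 0.05. C3 came closest, with a 5xFAD difference that was 0.36 ± 0.20 larger in mice lacking Lilrb4a (interval -0.06 to 0.79, adjusted p = 0.9996). It passed when 5ELKO replicate 2 or EL replicate 3 was left out (0.44 and 0.48), fell to 0.23 without 5ELKO replicate 3 or EL replicate 1, and turned to -0.05 with the hepatocyte gene mean as a covariate. For C4b the interaction was -0.12 (interval -0.69 to 0.45), for C3ar1 0.02 (interval -0.29 to 0.33) and for C1qa -0.08 (interval -0.56 to 0.40). With the hepatocyte mean as a covariate the C4b interaction was -0.60, also not past the threshold. Apart from EL replicate 1, that mean was higher in every 5ELKO library than in all others, so it can hardly be told apart from the genotype. Without the library labelled ELKO replicate 1 the interaction was 0.40 for C3 and -0.00 for C4b, and no member passed. The intervals of the interactions are wide, so equal amyloid differences were not shown.

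Both genotypes were then pooled, in a comparison added after the values were known. It weighted the differences 5EL against EL and 5ELKO against ELKO equally, over 9 libraries with 5xFAD and 6 without it. The C4b difference of 0.71 ± 0.13 (interval 0.43 to 0.998) had the smallest p of all 15804 genes (limma, adjusted p = 0.65), and 8 of 9 libraries with 5xFAD were above all 6 without it. C3ar1 was 0.35 ± 0.07 higher (interval 0.19 to 0.50), with the 5th smallest p (adjusted p = 0.65). It was one of 5 genes (0.0316%) that were higher in all 9 libraries than in all 6 others, with 5.93 to 6.41 against 5.70 to 5.92. Of the 9 members, 5 were past the exploratory threshold in the higher direction (C4b, C3ar1, C1qa, C1qc and Itgb2), beside 0.652% of all genes (0.734% in either direction), and 8 had a nominal p under 0.05, beside 3.56% of genes in that direction. The ninth, Serping1, was 0.09 ± 0.05 higher (interval -0.02 to 0.19). No gene passed an adjusted p of 0.05 and 1038 (6.57%) had a nominal p under 0.05. The count of members fell to 3 without 5ELKO replicate 1 or without EL replicate 2, whereas C4b, C3ar1 and C1qa were past the threshold without any 1 library. Without the library labelled ELKO replicate 1 all 5 members were past it, and C3 (0.27) was too. With the replicate number as a block 3 members were past it, C4b (0.62), C3ar1 (0.30) and C3 (0.27), and C1qa (0.23), C1qc (0.19) and Itgb2 (0.20) were not. With the microglial gene mean as a covariate, C4b (0.55) and C3 (0.38) were past the threshold, and C3ar1 (0.18), C1qa (0.01), C1qc (-0.05) and Itgb2 (0.03) were not.

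The study's own question was how loss of Lilrb4a alters amyloid-bearing tissue, which 5ELKO and 5EL address. The paper's quality-control list names more 5ELKO libraries than the 4 used here, so the sets of samples differ. C3 was higher in 5ELKO, and the other 8 members differed by 0.09 or less in either direction. C3 was 5.91, 5.64, 6.26 and 5.67 in 5ELKO and 5.38, 5.60, 5.29, 5.42 and 5.65 in 5EL. The groups overlapped narrowly, because 5EL replicate 5 was above 5ELKO replicate 2. The difference was 0.40 ± 0.12 (SE, interval 0.14 to 0.66), or 1.32-fold (limma, adjusted p = 0.9989 over 15743 genes). C3 was the only member past the exploratory threshold, beside 0.165% of all genes in that direction and 0.254% in either direction. It stayed past it without any 1 of the 9 libraries, from 0.27 without 5ELKO replicate 3 to 0.48 without 5ELKO replicate 2. Over all genes, 3 passed an adjusted p of 0.05 (0.0191%), none of them a member.

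Hepatocyte genes moved with C3 in this comparison. Alb, the albumin gene, was 8.18, 7.22, 8.38 and 8.01 in 5ELKO and 5.77 to 6.55 in 5EL. The mean of the hepatocyte list was 4.63 to 4.94 in 5ELKO and 4.35 to 4.49 in 5EL, and 24 of 25 of its tested genes had a nominal p under 0.05, with a median difference of 0.30. C3 is itself a major product of the liver. The EL library with high hepatocyte genes, replicate 1, had the highest C3 value of its group, 5.67 against 5.34 and 5.17. With the hepatocyte mean as a covariate the C3 difference was 0.03 and C3 was no longer past the threshold. The ranges of that mean do not overlap between 5ELKO and 5EL, so in these libraries it cannot be told apart from the genotype.

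The members other than C3 differed little on average between 5ELKO and 5EL, with intervals that were wide for C4b and the C1q genes. C4b differed by 0.09 (interval -0.22 to 0.40), C3ar1 by 0.03 (interval -0.18 to 0.24), Itgam by -0.00 (interval -0.18 to 0.17) and Serping1 by 0.02 (interval -0.10 to 0.14). The C1q genes were lower by 0.05 to 0.07 on average, with intervals from -0.40 to 0.27 for C1qc. The spread of C1qa was larger in 5ELKO (SD 0.35, n = 4) than in 5EL (SD 0.18, n = 5), and the 2 highest and the lowest of these 9 values were 5ELKO libraries.

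In mice without amyloid, ELKO was compared with EL. No member was past the exploratory threshold, beside 0.538% of all genes (85 genes, and 237 with the replicate pair as a block), and no gene passed an adjusted p of 0.05 (limma), with 372 at a nominal p under 0.05. C4b was 8.07, 7.94 and 7.50 in ELKO and 7.94, 7.69 and 7.25 in EL. The groups overlapped, with a difference of 0.21 ± 0.21 (interval -0.24 to 0.65, adjusted p = 0.9984). Libraries of the 2 groups with the same replicate number deviated together over all genes, and within these pairs C4b was higher in ELKO in 3 of 3, by 0.12, 0.25 and 0.24. With the pair as a block C4b did not pass either. Serping1 was also higher in 3 of 3 pairs, by 0.05, 0.25 and 0.03, where ELKO replicate 2 held the highest value of all libraries, 6.62. The share of all genes higher in 3 of 3 pairs was not counted, so these pair counts are descriptions only. The other 7 members differed by at most 0.08 on average. Without ELKO replicate 1 the C4b difference was 0.09 and no member passed.

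Over all libraries the deletion difference, taken as the mean of both comparisons and likewise added after the values were known, placed no member past the exploratory threshold, beside 0.0759% of all genes. C3 was 0.22 ± 0.10 higher with the deletion (interval 0.01 to 0.43, adjusted p = 1), below a fold change of 1.2, and 0.20 without the library labelled ELKO replicate 1. The other members lay between -0.05 and 0.15. No gene passed an adjusted p of 0.05 and 285 (1.8%) had a nominal p under 0.05. The comparisons of the 4 genotypes share libraries and are not independent of each other.

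**Figure D2:**
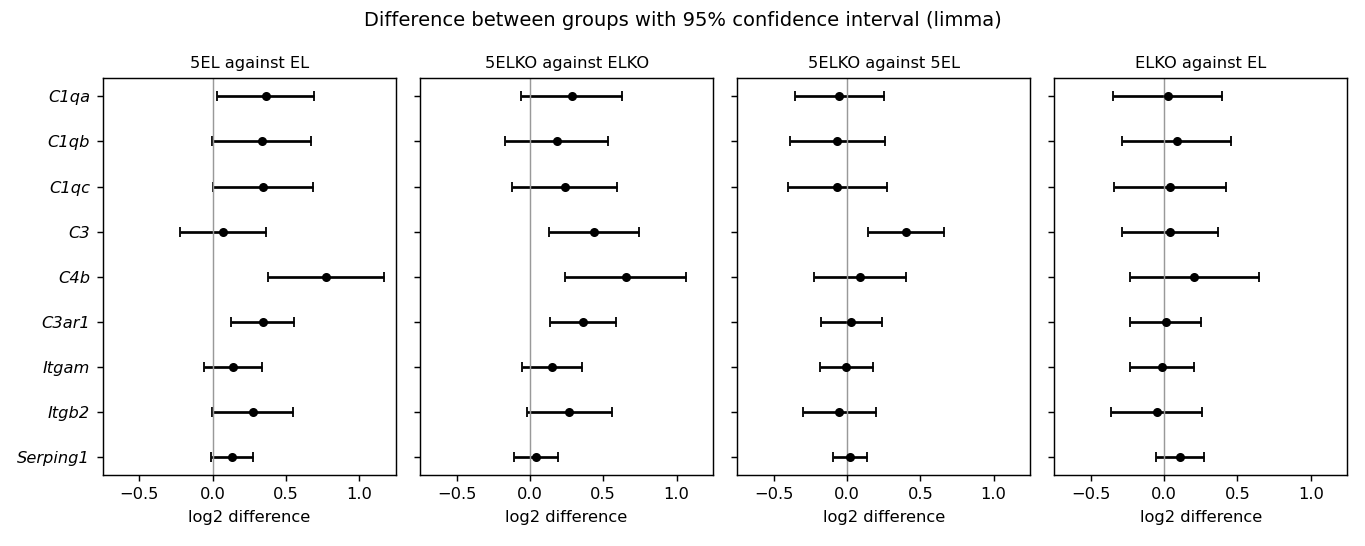
Log2 difference of each complement gene in the 4 comparisons between genotypes, with 95% confidence intervals from limma (x axis, positive values are higher in the first named group). C4b and C3ar1 lie to the right of 0 in both amyloid comparisons on the left, at 0.77 and 0.34 in 5EL against EL and at 0.65 and 0.36 in 5ELKO against ELKO. C3 is the only member whose interval excludes 0 in 5ELKO against 5EL (0.14 to 0.66).

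Across the 15 libraries the members fell along different lines, given here as descriptions, since genotype and tissue composition are shared by all genes of a library. C1qa, C1qb and C1qc were nearly interchangeable, with Pearson r of 0.95 for each pair. The difference C1qa minus C1qb had an SD of 0.08 over libraries, while C1qa itself had an SD of 0.27. Itgb2 followed C1qa (r = 0.94) more closely than Itgam did (r = 0.74), although the 2 chains form one receptor. C3ar1 also followed C1qa (r = 0.88). C4b was related to C1qa less closely (r = 0.58), and C3 was not related to C1qa (r = 0.015), C1qb (r = -0.08) or C1qc (r = -0.01). Serping1 had the smallest spread of all members, with an SD of 0.10 against 0.45 for C4b.

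The genes most like the members were sought among the 15804 genes tested, over the same 15 libraries. The mean of the 3 C1q genes was followed most closely by Ctss (r = 0.97), a lysosomal protease gene of microglia. Next came Tyrobp (r = 0.95), which encodes a signalling adaptor, and Trem2 (r = 0.95), which encodes a microglial receptor that uses it. C4b was followed by Gfap (r = 0.95) and Serpina3n (r = 0.94), both genes of reactive astrocytes, and by Spint1 (r = 0.91). Gfap was 11.06 to 11.85 in 5EL and 9.66 to 10.48 in EL, a difference of 1.35 ± 0.31 (adjusted p = 0.63). The list of 10 astrocyte genes that holds Gfap did not rise as a whole, with a median difference of -0.06. Of these genes 3 were higher in 5EL, and 1 had a nominal p under 0.05 (limma). In ELKO, Gfap was 11.23, 10.97 and 9.93, and C4b followed the same order of libraries. For C3 the closest were Gm15728 (r = 0.88), Fgf5 (r = 0.87) and Neu2 (r = 0.85), and for Serping1 they were Sowahc (r = 0.86), Gdap10 (r = 0.82) and Gpc4 (r = 0.82). Fgf5 (3.32 to 3.53) and Neu2 (3.48 to 3.72) lay near the low-expression filter, where values are drawn together. Gm15728 spanned only 4.71 to 5.0.

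**Figure D3:**
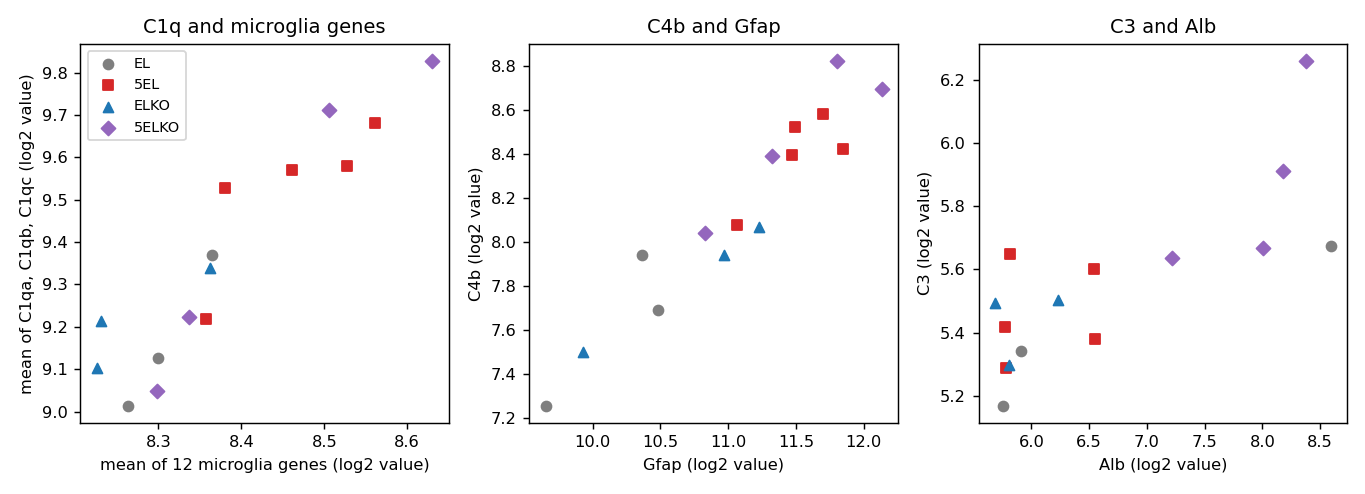
Left, mean log2 value of C1qa, C1qb and C1qc against the mean of 12 microglial genes. Middle, C4b against Gfap. Right, C3 against Alb, the albumin gene. Each point is 1 of 15 libraries, coloured by genotype. Libraries with higher microglial genes have higher C1q, and those with higher Gfap have higher C4b, whereas C3 is highest in 5ELKO replicates 3 and 1, and the library with the highest Alb, EL replicate 1 (8.59), has C3 at 5.67, above 5ELKO replicates 2 and 4.

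Beyond the 9 members, a list of 52 further complement components, receptors and regulators was examined. Of these, 23 were below a linear value of 10 in every library, among them C1ra, C4a, Cfb, Cfd, Mbl1, Mbl2, Masp2, Cr2, Vsig4, C6, C8a, C8b, C9 and Cfi, and 29 were tested. None passed an adjusted p of 0.05 in any comparison (limma). In 5EL against EL, 4 of 29 had a nominal p under 0.05, beside 7.7% of all genes, and the list median was 0.02. In 5ELKO against ELKO 1 of 29 did, beside 2.37% of all genes, and in ELKO against EL 1 of 29, beside 2.35%. In 5ELKO against 5EL 2 of 28 did, beside 2.49%. The genes named next were picked after their values were seen.

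Itgax, which encodes the CD11c chain of complement receptor 4, had the largest differences of the list. It was 5.99, 4.98, 5.29, 5.73 and 5.98 in 5EL and 4.94, 4.90 and 4.89 in EL, and all 5EL libraries were above all EL libraries. The difference was 0.68 ± 0.22 (interval 0.22 to 1.14, adjusted p = 0.63). In 5ELKO it was 6.01, 5.21, 5.28 and 5.79, all above the 4.91 to 5.18 of ELKO, a difference of 0.54 ± 0.23 (interval 0.06 to 1.03, adjusted p = 0.9995).

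Clu, encoding clusterin, an inhibitor of the terminal complex, was 0.21 ± 0.07 higher in 5EL than in EL (interval 0.07 to 0.36) and 0.04 higher in 5ELKO than in ELKO. Its interaction was -0.17 (interval -0.38 to 0.04, limma adjusted p = 0.9996), so a dependence on Lilrb4a was not shown. Without amyloid, Clu was 0.14 higher in ELKO than in EL (interval -0.02 to 0.30).

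Among membrane inhibitors, Cd59a was 0.27 ± 0.09 lower in 5ELKO than in 5EL (interval -0.47 to -0.07, adjusted p = 0.9989), with 8.02 to 8.13 against 8.09 to 8.58. It was past the exploratory threshold in 10 of 20 alternative fits, from -0.33 without 5EL replicate 2 to -0.01 with the hepatocyte mean as a covariate. Cd59b was 0.11 ± 0.04 lower in 5ELKO than in 5EL (interval -0.20 to -0.02). Cd55 was 0.35 ± 0.13 higher in ELKO than in EL (interval 0.07 to 0.62, adjusted p = 0.9984), with ELKO replicate 2 the highest at 7.47. It was past the exploratory threshold in 13 of 17 alternative fits, with differences from 0.19 to 0.43. ELKO replicate 2 was high in choroid plexus genes, as was 5EL replicate 1, which had the highest Cd55 of the 5EL libraries (7.14). The C5a receptor genes C5ar1 and C5ar2 lay near 4.15 to 4.45 and 3.41 to 3.63 in all libraries, where low values are drawn together and differences are understated.

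**Figure D4:**
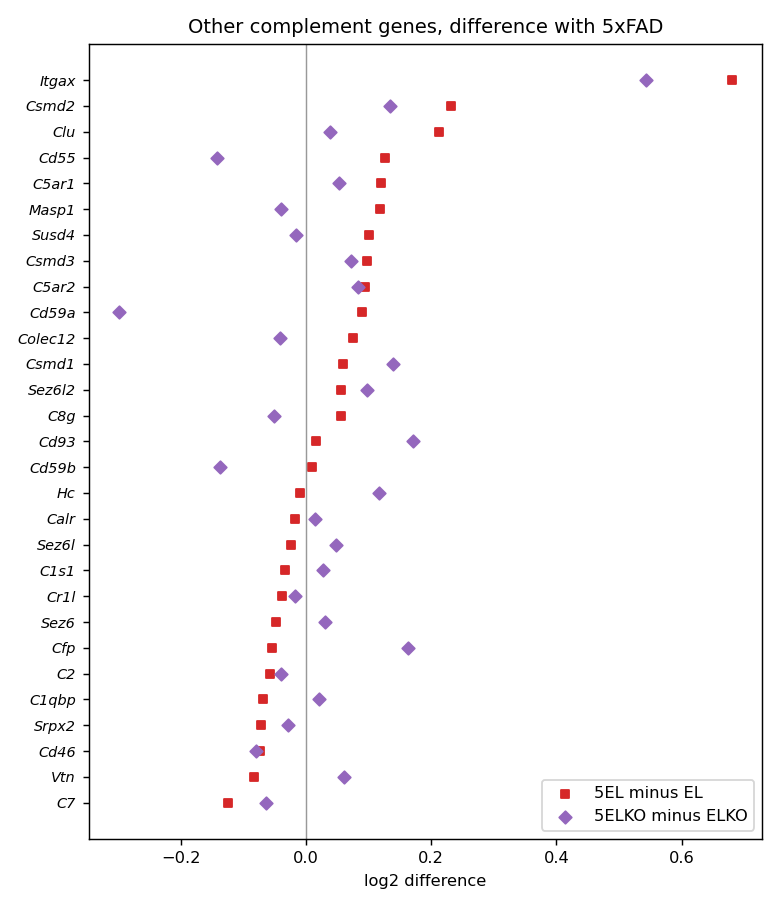
Log2 difference with 5xFAD for the 29 further complement genes tested, in mice with intact Lilrb4a (squares, 5EL minus EL) and in mice lacking it (diamonds, 5ELKO minus ELKO). Itgax lies farthest to the right in both (0.68 and 0.54), and Clu is at 0.21 with Lilrb4a and 0.04 without it. The Clu interaction has an interval of -0.38 to 0.04, so these 2 Clu values were not shown to differ.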

How the data were processed

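Bulk RNA-seq was performed by the authors on polyA RNA of thalamic tissue. Per the submitters' processing notes, reads were checked with FastQC (v0.11.9), trimmed with Trimmomatic (v0.39), aligned to GRCm38 with HISAT2 (v2.2.1), sorted with SAMtools (v1.16.1) and counted per gene name with featureCounts (v2.0.3), and DESeq2 (v1.38.3) was applied. The authors' counting ignored strand. The authors deposited log2 values for 29659 genes per library, and the transform is not given in the sources used here. Values ran from -2.27 to 18.98, with library medians of 3.96 to 4.01. Low genes are squeezed towards a floor, so their differences are understated. Depth is unknown, and the number of mice limits the precision.

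Groups and replicate numbers came from the labels. The members and gene lists were chosen with earlier results of these data known. Genes at a log2 value of 3.32 (a linear value of 10) in at least 3 of 15 or 4 of 9 libraries were tested with limma (version 3.58.1, run in R 4.3.3) by a linear model with a variance trend in the empirical Bayes step, two-sided, and Benjamini-Hochberg adjustment over all genes tested. 5ELKO against 5EL used its 9 libraries and the other comparisons used all 15. Both pooled comparisons were added after the data were seen. All 9 members were named, as were the 3 genes most like the C1q mean, C4b, C3 and Serping1 by Pearson r, and further complement genes only after their values were seen. One such gene is not reported here and was left out of that list's counts. Expression scores were means of log2 values over a list. Coordinates and exon lengths were taken from GENCODE M21, and promoters from RefSeq (GRCm38.p6). The fits were tested on simulated data. Alternatives were the filter, the variance trend, recentring, a replicate block, scores or Xist as covariates, and libraries left out. EL and ELKO libraries with the same number deviated together (r = 0.453, 0.325 and 0.742 in 3 pairs), and the labels do not say what they share. The other groups did not pair by number. Figures were drawn with matplotlib 3.10.9 in Python 3.11.15.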

Additional observations from a re-analysis of the deposited data

Results flagged for a closer look

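C1qa in 5EL replicate 2 (9.31) stood apart from the other 4 libraries of its group (9.65 to 9.75), with a gap of 0.768 of the group's range. It was the only one of 18 checks of a member within a group of 4 or 5 libraries to pass Dixon's limit (0.71 for 5 libraries), and chance alone passes about 1 in 20. Without this library the C1qa difference between 5EL and EL was 0.48 in place of 0.36. The microglial gene mean of this library (8.36) was also the lowest of the 5EL group.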

How the results depend on the processing

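Each member was refitted under every alternative. Of 171 values for 5EL against EL, 135 stayed on the same side of the exploratory threshold, 27 lost it and 9 gained it. For 5ELKO against ELKO, 153 of 162 stayed, 3 lost it and 6 gained it, and for 5ELKO against 5EL 179 of 180 stayed. All 153 values for ELKO against EL stayed. Of 225 pooled 5xFAD values 184 stayed, 22 lost it and 18 gained it, and C1qc reversed to -0.048 with the microglial score as a covariate. For the deletion over all libraries 224 of 225 stayed, and for the interaction 223 of 225. The cause of these changes was not tested unless stated.

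Members past the exploratory threshold in 5EL against EL numbered 4, and 2 with the replicate block, 1 with the microglial score, 2 with the hepatocyte score and 2 without both libraries high in choroid genes. In 5ELKO against ELKO they numbered 3, and 1 with the hepatocyte score. In 5ELKO against 5EL there was 1, and 0 with the hepatocyte score. In the pooled 5xFAD comparison they numbered 5, and 3 with the block (C4b, C3ar1 and C3), 2 with the microglial score and 3 without the libraries high in choroid genes.

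Leaving out 1 library gave 2 to 6 members in 5EL against EL (2 without 5EL replicate 1, 4 or 5 or EL replicate 1 or 2), 3 to 6 in 5ELKO against ELKO (6 without 5ELKO replicate 2), 3 to 7 in the pooled 5xFAD comparison (3 without 5ELKO replicate 1 or EL replicate 2), 0 to 1 in the interaction (C3, without 5ELKO replicate 2 or EL replicate 3) and 0 to 1 in the pooled deletion comparison (C3, without EL replicate 1).

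Over all genes, those past the exploratory threshold in 5EL against EL numbered 381, and 1289 with the microglial score, 249 with the choroid score, 1118 with the hepatocyte score and 86 to 1429 with 1 library left out. At an adjusted p under 0.05 there were 0, and 1 without the filter, 1 with the hepatocyte score and 0 to 31 with 1 library left out (31 without EL replicate 1). In 5ELKO against ELKO 63 became 306 with the microglial score, 199 with the hepatocyte score and 43 to 158 with 1 library left out. In 5ELKO against 5EL 40 became 26 with the stricter filter (a log2 value of 5), 70 with the block, 341 with the hepatocyte score, 73 without the library high in choroid genes and 42 to 85 with 1 library left out. The 3 genes at an adjusted p under 0.05 became 1 without the filter, 1 with the block, 0 with the hepatocyte score, 0 with 15 libraries in the fit and 0 to 4 with 1 library left out.

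In ELKO against EL, whose numbers pair the libraries, 85 genes became 237 with the block, 56 with the choroid score, 737 with the hepatocyte score, 44 without the library high in choroid genes, 44 with both groups fitted alone and 40 to 914 with 1 library left out (914 without EL replicate 1, which also gave 1 gene at an adjusted p under 0.05 against 0 otherwise). The interaction's 190 became 1687 with the hepatocyte score and 137 to 786 with 1 library left out. The pooled 5xFAD count of 116 became 835 with the microglial score, 58 with the hepatocyte score, 73 with Xist, 180 without the libraries high in choroid genes and 54 to 435 with 1 library left out. The pooled deletion count of 12 became 19 with the block, 5 with the hepatocyte score and 6 to 158 with 1 library left out. The block changed no member's call in ELKO against EL, 5ELKO against ELKO or 5ELKO against 5EL. In the other groups same-numbered libraries did not deviate together (r = -0.32 to 0.228), so they share only a number.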
